A study of Homo sapiens with 36 samples.

Results

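Retinoic acid, the active form of vitamin A, patterns the early nervous system and drives stem cells out of the pluripotent state. The account below follows 9 human genes that bind, take up, make, destroy or sense it: CRABP1, CRABP2, STRA6, DHRS3, CYP26A1, CYP26B1, RARA, RARB and RARG. They were taken by gene symbol, and each matched 1 of the 62710 gene identifiers in the deposited tables. Vitamin A (retinol) enters cells through STRA6 and is oxidised first to retinal and then to retinoic acid, while DHRS3 turns retinal back into retinol. CRABP1 and CRABP2 carry retinoic acid inside the cell, CYP26 enzymes degrade it, and the receptors RARA, RARB and RARG bind DNA with an RXR partner and switch on genes, CYP26A1 and RARB among them.

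The cells were H9, a human embryonic stem cell line, without a RAI1 mutation (WT), with 1 mutant RAI1 copy (labelled HET) or with both copies knocked out (labelled KO). RAI1 encodes a chromatin protein whose loss from 1 chromosome copy underlies Smith-Magenis syndrome. Neurons were made by switching on the transcription factor NGN2 with doxycycline, in Neurobasal-A medium with B27, GDNF, NT3 and CultureOne, and RNA was taken at days 0, 3 and 7. Each of the 9 genotype-by-day groups held 4 libraries labelled as biological replicates, 36 in all, made from total RNA after ribosomal RNA depletion and carrying a single batch label. The labels do not say how many clones stand for a genotype, whether a replicate is a separate clone or culture, or whether the B27 held vitamin A. The p-values below therefore measure the spread between these libraries, which may be technical.

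Libraries held 23948079 to 56678796 counts. The summed level of 8 stem cell markers was 2415 to 5457 CPM (counts scaled to the size of the library) in the day 0 libraries and 68.4 to 364 CPM at day 7, and that of 10 neuron markers was 247 to 689 CPM at day 0 and 5578 to 15307 CPM at day 7, so the day 0 libraries, also labelled as induced neurons, carried a stem cell profile. The genotypes also differed in these markers. At day 3, 9 of 10 neuron markers were called higher than WT in KO (21.6% of all genes called) and 5 of 10 in HET (3.28%), and at day 7, 4 of 10 in each (32.6% and 14.4%). At day 7, of 4 stem cell markers tested 3 rose and 1 fell in KO and 2 rose in HET, LIN28A among them (log2 fold change 3.38 in KO and 2.09 in HET, from 23.8 ± 7.71 CPM in WT). Of 5 neural progenitor markers 2 fell in KO and 1 in HET. Their part in the day 3 and day 7 results below was not tested. The 5 structural RNA genes RN7SL1, RN7SL2, RN7SK, RPPH1 and RMRP took 2.84% to 27.5% of the counts, at day 7 14.5% to 25.6% in WT, 9.90% to 15.8% in KO and 27.5%, 2.84%, 4.17% and 13.4% in HET replicates 1 to 4. On the TPM scale, HET replicate 1 of day 7 loses its high rank for several members, as given beside them. RAI1 RNA itself did not mark the genotypes: WT libraries held 22.0 to 40.7 CPM at day 0 and KO libraries 23.8 to 48.4 CPM, so its level does not check the labels. Replicate 1 of HET and KO stood apart at day 0 by its HOX genes, with values given beside CYP26A1 below. Bulk RNA cannot tell fewer cells of a type from less RNA per cell.

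On the TPM scale, which also divides by transcript length, the carrier proteins were by far the most abundant members in stem cells. WT libraries at day 0 held 103 ± 37.0 TPM of CRABP1 (mean ± SD, n = 4, as throughout) and 48.7 ± 12.2 TPM of CRABP2. RARG followed with 8.25 ± 0.487 TPM, RARA with 5.83 ± 1.22 TPM, STRA6 with 5.32 ± 1.34 TPM and DHRS3 with 2.08 ± 1.06 TPM. CYP26A1 (0.715 ± 0.401 TPM), RARB (0.375 ± 0.0874 TPM) and CYP26B1 (0.147 ± 0.0435 TPM) were each below 1 TPM. By day 7 the WT order was CRABP1 at 177 ± 120 TPM, CRABP2 at 14.3 ± 7.11 TPM and RARA at 4.57 ± 1.78 TPM, with the other 6 members below 1 TPM. All other levels below are CPM after TMM scaling, which suits comparisons of 1 gene between libraries.

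**Figure D1:**
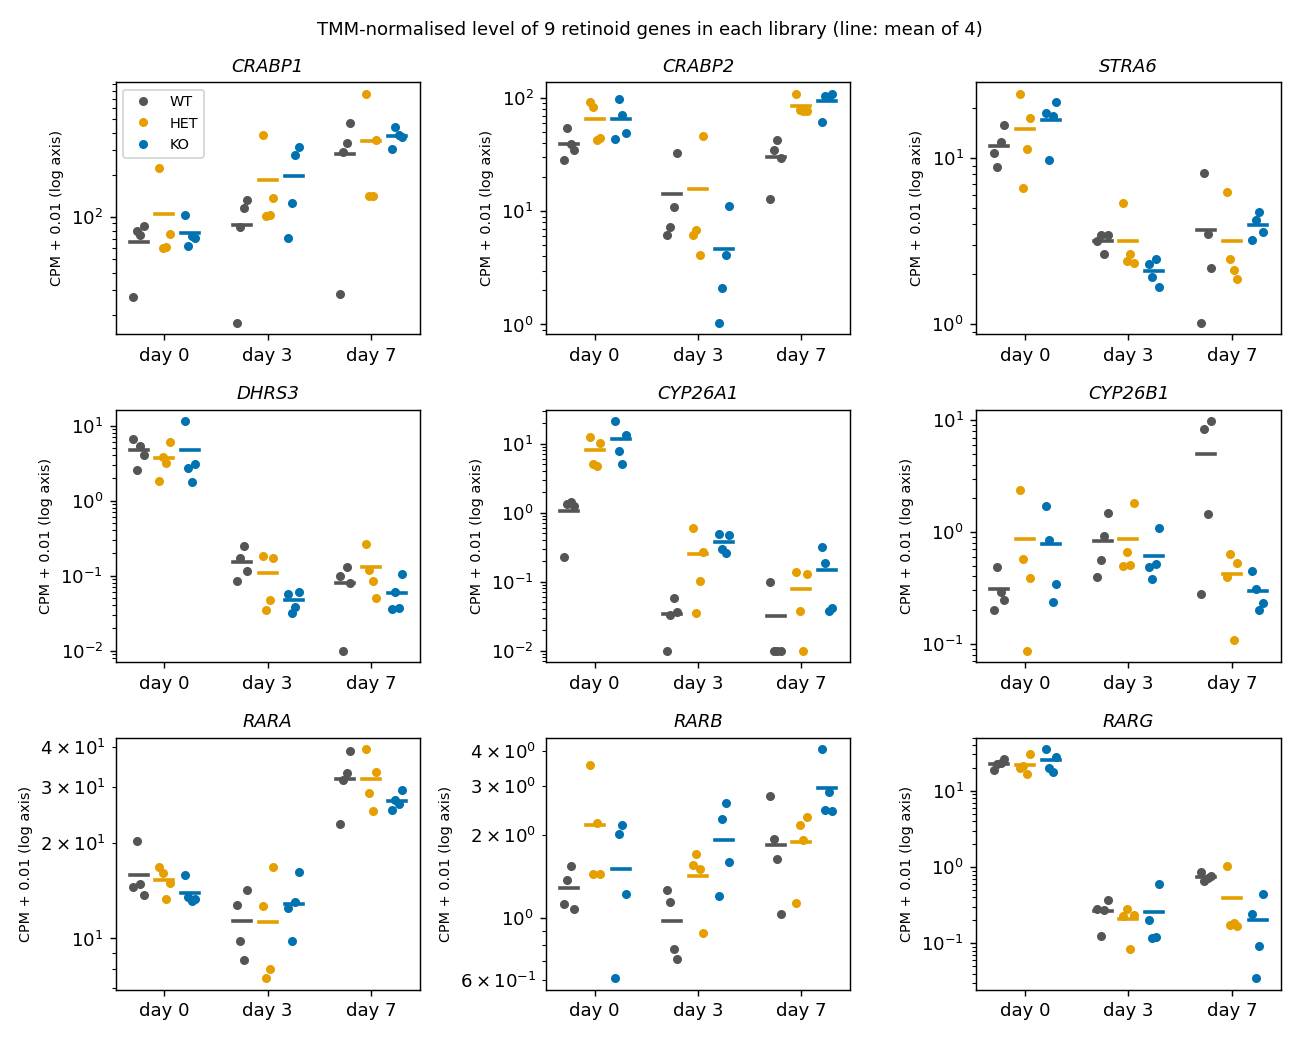
Level of each gene in each of the 36 libraries (vertical log axis, CPM + 0.01) by day and genotype; points are libraries and lines the mean of 4. RARG, DHRS3 and STRA6 drop after day 0 in all 3 genotypes, CYP26A1 at day 0 is higher in every HET and KO library than in any WT library, and CYP26B1 at day 7 is high only in some WT libraries.

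The members called between genotypes were CYP26A1, CYP26B1, CRABP2 and, near the threshold, RARB. In KO at days 3 and 7 the counts given below are near the share of all genes. A gene was called where edgeR's quasi-likelihood test gave a Benjamini-Hochberg adjusted p under 0.05 over all genes tested. At day 0 CYP26A1 was the 1 member of 9 called in KO against WT, where 2.08% of all tested genes were called, and again the 1 of 9 called in HET against WT, where 1.63% were. At day 3, 8 members passed the filter on low counts. CYP26A1 and RARB were called in KO against WT (21.6% of all genes), and none in HET against WT (3.28%). At day 7, 7 members passed the filter, and CRABP2 and CYP26B1 were called in both KO (32.6% of all genes) and HET (14.4%). KO against HET gave no called member at day 0 (0.856% of all genes), day 3 (4.35%) or day 7 (1.40%). The HET and KO comparisons share their WT libraries and are set side by side only. The median log2 fold change of the tested members was 0.26 in KO and 0.66 in HET at day 0, against 0.01 in each over all genes. At day 3 it was 0.07 in KO and 0.15 in HET, against -0.05 and 0.02 over all genes. At day 7 it was 0.08 in KO and -0.0025 in HET, against -0.04 and 0.0046 over all genes. The HET median at day 0 is the value of CRABP1, which turned negative without replicate 1 of all genotypes. The medians were not retaken without that replicate.

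**Figure D2:**
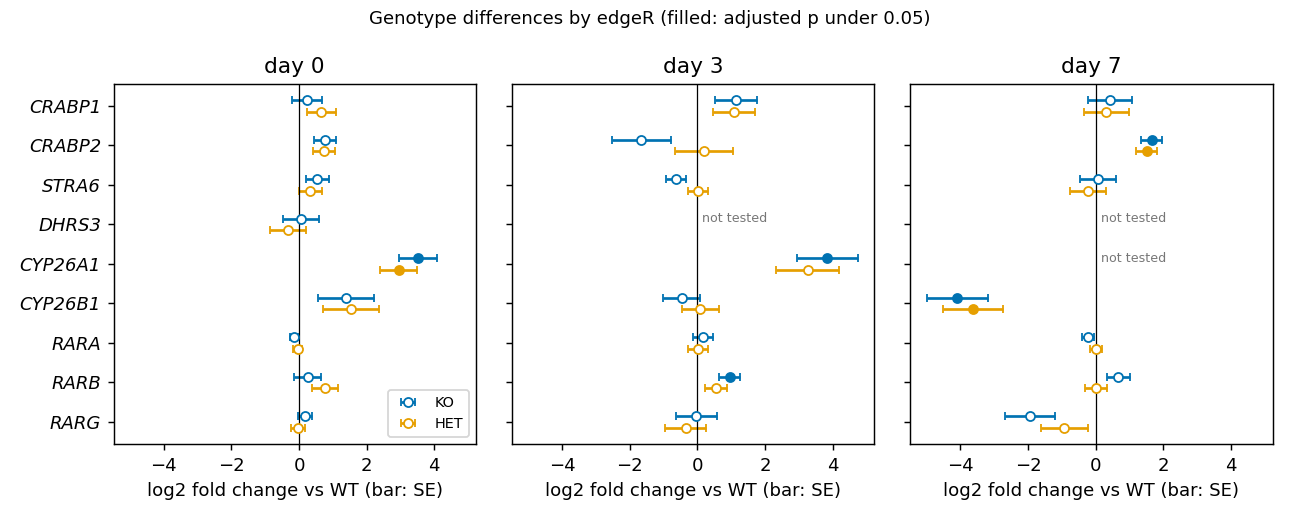
Log2 fold change of each gene against WT (horizontal axis, bars are the standard error) at days 0, 3 and 7, in KO (blue) and HET (orange); filled points passed an adjusted p of 0.05. CYP26A1 lies to the right at days 0 and 3, CRABP2 to the right and CYP26B1 to the left at day 7, and the 2 genotypes lie close together in each of these.

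The change from stem cell to neuron was larger for most members than any difference between genotypes. From day 0 to day 3, 5 of 8 tested members fell and none rose in WT (60.0% of all genes were called). In HET 5 of 9 fell and none rose (48.3%), and in KO 5 of 9 fell and 1 rose (59.3%). These counts are near the shares of all genes. RARG, DHRS3, STRA6 and CRABP2 fell in all 3 genotypes. From day 3 to day 7 the called members all rose. In WT they were CYP26B1, RARA, RARB and RARG, 4 of 8 tested (46.2% of all genes called). In HET they were RARA and CRABP2, 2 of 9 (41.2%). In KO they were RARA, STRA6, CRABP1 and CRABP2, 4 of 9 (47.8%). The counts in WT and KO are again near the shares of all genes, and that in HET is below it. The median log2 change of the tested members from day 0 to day 3 stood at -0.98 (WT), -1.99 (HET) and -3.05 (KO). Over all genes it was 0.07, 0.05 and 0.03. The WT median covers 8 members, without CYP26A1, which did not pass the filter there. The HET and KO medians cover 9, with CYP26A1 at -5.05 and -5.00, so the medians do not compare like with like.

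CYP26A1 (ENSG00000095596, chromosome 10, 93073475 to 93077890, plus strand, GRCh38) encodes the enzyme that clears retinoic acid in early embryos and is among the most inducible retinoic acid targets. At day 0 the WT libraries held 0.218, 1.32, 1.42 and 1.25 CPM in replicates 1 to 4, that is 8, 56, 60 and 42 counts. The HET libraries held 12.6, 5.02, 4.69 and 10.1 CPM, and the KO libraries 21.0, 7.86, 5.09 and 13.3 CPM. All 8 mutant libraries lay above all 4 WT libraries, and HET and KO overlapped. The log2 fold change was 3.50 (SE 0.56, adjusted p = 0.0041, edgeR) in KO, or 11.3-fold, and 2.94 (SE 0.55, adjusted p = 0.015) in HET, or 7.69-fold. KO and HET differed by 0.56 (SE 0.50, adjusted p = 0.99). Without WT replicate 4 the HET comparison had an adjusted p of 0.051.

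Genes of the anterior HOX clusters, which retinoic acid also induces, moved with CYP26A1 in part. The summed level of 14 anterior HOX genes at day 0 was 0.354 to 0.661 CPM in WT, where 2 to 7 of the 14 were detected. It was 123, 0.401, 2.04 and 5.89 CPM in HET replicates 1 to 4 and 60.4, 2.04, 5.32 and 5.90 CPM in KO. Replicate 1 of both mutants was thus far above the others, with all 14 genes detected. HET replicate 2 had a HOX sum inside the WT range and 5.02 CPM of CYP26A1, above the highest WT library. With replicate 1 of all genotypes left out, CYP26A1 still differed by 2.74 in KO (adjusted p = 0.0047) and 2.32 in HET (adjusted p = 0.014). None of the 4 HOX genes of this list that passed the filter at day 0 was called in KO or HET, with medians of 6.26 and 8.07 on the log2 scale that rest largely on replicate 1. The part of the HOX-high libraries in the other results was not tested beyond the values given.

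**Figure D3:**
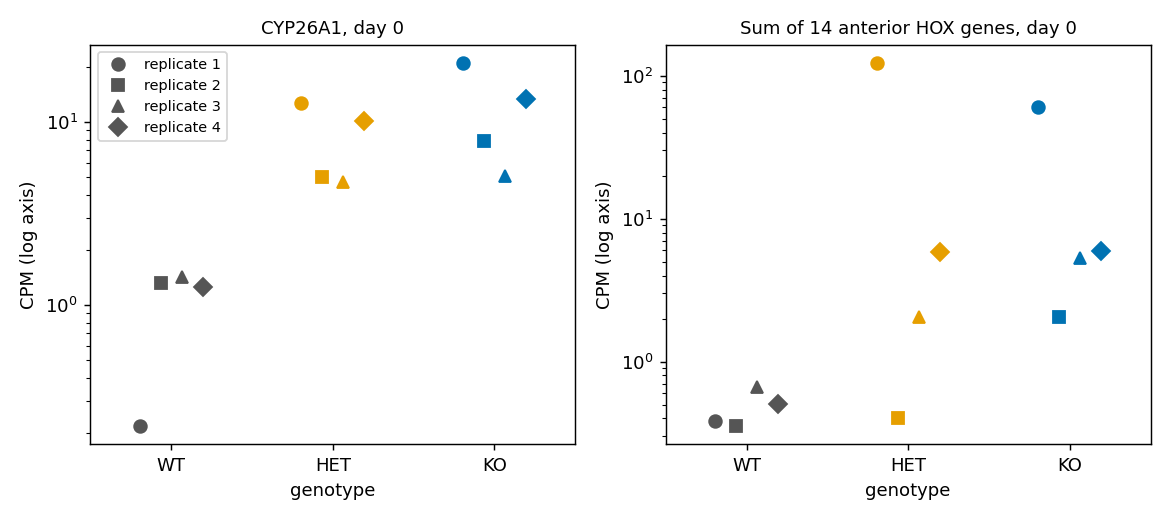
CYP26A1 (left) and the summed level of 14 anterior HOX genes (right) at day 0 in each library (vertical log axes, CPM), by genotype and replicate number. All mutant libraries exceed WT for CYP26A1, whereas HET replicate 2, at 0.401 CPM, lies inside the WT range of the HOX sum.

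The promoters of CYP26A1 and RARB are shown because these were the only members whose RefSeq promoter windows (GRCh38.p14, 250 bases before to 50 after a start) held the direct repeat bound by retinoic acid receptors. The motif searched, on both strands, was a pair of elements, each AGGTCA, or as variant AGTTCA, or as variant GGGTCA, or as variant GGTTCA, separated by N5 (called DR5). It stood in 2 of 21 windows of the 9 genes and in 31 of 35116 windows of all genes, or 0.0883%. The same elements separated by N1 or N2 occurred in none of the 21 windows and in 0.131% and 0.0399% of all windows. The 120 bases before each start follow, on the gene's plus strand, with the repeat in capitals; in CYP26A1 the repeat reads on the opposite strand.
RARB, chr3:25428143-25428262: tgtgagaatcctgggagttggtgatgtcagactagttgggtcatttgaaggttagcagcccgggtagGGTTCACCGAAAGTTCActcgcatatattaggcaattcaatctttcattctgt
CYP26A1, chr10:93073773-93073892: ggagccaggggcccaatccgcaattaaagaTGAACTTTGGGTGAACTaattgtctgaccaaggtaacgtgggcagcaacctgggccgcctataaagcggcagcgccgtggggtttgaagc
The repeat lies 53 to 37 bases before the start of its RARB window and 90 to 74 bases before that of its CYP26A1 window. On its own strand the RARB repeat reads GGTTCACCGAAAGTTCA and the CYP26A1 repeat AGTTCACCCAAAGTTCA. A match is a description of the letters, not a measured binding site. These windows belong to 1 of 4 listed RARB starts and 1 of 2 listed CYP26A1 starts, both inside the gene spans given here from GENCODE 29, and gene-level counts do not separate the starts.

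CYP26A1 nearly vanished on induction. At day 3 the WT libraries held 0, 1, 2 and 1 counts, and the 0 allows up to 0.0553 CPM. HET libraries held 24, 1, 5 and 8 counts and KO libraries 20, 13, 9 and 19 counts. Every KO library was above every WT library, while HET replicate 2 was not. The pooled counts were 16.6 times as high in KO as in WT (61 against 4 counts, exact 95% interval 6.18 to 63.0 for counting error only) and 10.2 times in HET (38 counts, 3.69 to 39.5). KO passed the test (adjusted p = 0.0080) and HET did not (adjusted p = 0.080, log2 fold change 3.26, SE 0.92). With the replicate number as a block, which these HET and WT libraries met the criterion for, HET passed (3.04, adjusted p = 0.046), and without HET replicate 2 it passed at 0.037. Without replicate 1 of all genotypes the HET value was 1.82 (adjusted p = 0.49). On log2(TPM + 1), which compresses such low values, KO had an adjusted p of 0.18.

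From day 0 to day 3 CYP26A1 counts fell by a similar factor in each genotype. Pooled counts at day 0 were 47.8 times those at day 3 in WT (166 against 4 counts, interval 18.3 to 178), 37.3 times in HET (27.0 to 53.0) and 33.0 times in KO (25.6 to 43.4). The fall passed the test in HET (-5.05, SE 0.79, adjusted p = 2.0e-04) and KO (-5.00, SE 0.57, adjusted p = 4.6e-06), and the gene did not pass the filter in WT. At day 7 CYP26A1 was not tested: WT libraries held 3, 0, 0 and 0 counts, HET 5, 1, 0 and 3, and KO 12, 7, 1 and 1. Ordered by mean, KO and HET at day 0 overlapped each other and stood apart from WT at day 0, and from there on each group overlapped the next.

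CYP26C1, the neighbouring enzyme gene that ends 3938 bases before CYP26A1, behaved otherwise, and is named here after its values were seen. At day 0 the HET libraries held 9.62, 1.64, 1.65 and 5.05 CPM, the WT libraries 0.109, 0.259, 0.496 and 0.238 CPM, and the KO libraries 0, 0.268, 0.130 and 0.183 CPM. HET was above both other genotypes in all 4 libraries. The log2 fold change was 3.99 (SE 0.71, adjusted p = 0.0098) in HET against WT and -4.93 (SE 0.78, adjusted p = 0.0062) in KO against HET. KO against WT was -0.94 (SE 0.86, adjusted p = 0.76). As shares of the summed TPM of the 3 CYP26 genes at day 0, CYP26A1 took 97.4% ± 1.1 in KO and 80.9% ± 8.0 in HET. The CYP26C1 shares were 0.704% ± 0.54 and 16.6% ± 6.2. In WT CYP26A1 took 70.7% ± 21.2, overlapping HET, and CYP26C1 took 6.28% ± 2.2.

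CYP26B1 (ENSG00000003137, chromosome 2, 72129238 to 72148038, minus strand), the family member of later brain and limb development, differed in the other direction at day 7. WT libraries held 0.266, 8.36, 1.45 and 9.76 CPM, or 9, 353, 49 and 419 counts. HET libraries held 0.383, 0.630, 0.0987 and 0.516 CPM, and KO libraries 0.440, 0.300, 0.192 and 0.220 CPM. WT replicates 2 and 4 were high, replicate 3 intermediate, and replicate 1 lay within the HET and KO ranges. The log2 fold change was -4.09 (SE 0.90, adjusted p = 0.0042) in KO and -3.63 (SE 0.88, adjusted p = 0.015) in HET. Leaving out any 1 library kept both calls, and the values ran from -4.49 to -3.55 in KO and from -4.02 to -3.08 in HET. On log2(TPM + 1) neither passed, with adjusted p-values of 0.11 in KO and 0.13 in HET, the gene being at 0.422 ± 0.430 TPM in WT.

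The day 7 difference in CYP26B1 came with a rise in WT alone that passed the test. WT rose by 2.61 from day 3 (SE 0.77, adjusted p = 0.012), from libraries at 0.387, 0.546, 0.904 and 1.46 CPM, and on log2(TPM + 1) by 0.33, which did not pass (adjusted p = 0.093). HET changed by -1.11 (SE 0.83, adjusted p = 0.31) and KO by -1.01 (SE 0.59, adjusted p = 0.17). The test of the difference itself called CYP26B1 in KO (-3.64, SE 1.14, adjusted p = 0.022), as 1 of 2 members of 9 against 18.5% of all genes. In HET, where no member was called and 4.74% of all genes were, the value was -3.68 (SE 1.12, adjusted p = 0.052). HET passed with DESeq2 (adjusted p = 0.014) and without WT replicate 4 of day 3 or WT replicate 1 or 3 of day 7. With a library left out the edgeR adjusted p in HET ran from 0.018 to 0.13. The KO call was lost without WT replicate 1 or KO replicate 4 of day 3 and without WT replicate 2 or 4 of day 7, with adjusted p-values up to 0.060, and on log2(TPM + 1) (0.22). At days 0 and 3 the 3 genotypes overlapped. HET and KO replicate 1 were the highest at day 0, at 2.38 and 1.68 CPM, against 0.0769 to 0.837 CPM in the other mutant libraries.

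CRABP2 (ENSG00000143320, chromosome 1, 156699606 to 156705816, minus strand), which delivers retinoic acid to its nuclear receptors, was higher in both mutants at day 7. WT libraries held 12.7, 34.8, 42.8 and 29.5 CPM, HET libraries 110, 79.0, 76.9 and 77.2 CPM, and KO libraries 62.1, 106, 102 and 108 CPM. No mutant library overlapped WT. The log2 fold change was 1.66 (SE 0.31, adjusted p = 0.0015) in KO, or 3.15-fold, and 1.51 (SE 0.30, adjusted p = 0.0062) in HET, or 2.85-fold. KO and HET differed by 0.14 (SE 0.30, adjusted p = 0.87). Both calls held on log2(TPM + 1), without any 1 library, and without replicate 1 of all genotypes (1.58 in KO and 1.13 in HET). At day 0 the mutant means were also higher, at 65.6 CPM in KO and 65.4 CPM in HET against 39.4 CPM in WT, with overlapping ranges. Those differences of 0.77 (SE 0.32, adjusted p = 0.33) and 0.74 (SE 0.32, adjusted p = 0.38) did not pass edgeR's test.

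CRABP2 dipped at day 3 in all 3 genotypes, and its later rise was steepest in KO and did not pass the test in WT. On TPM WT libraries held 39.2 to 65.2 at day 0, 4.60 to 14.7 at day 3 and 5.15 to 22.4 at day 7. At day 3 WT libraries held 6.17, 7.21, 11.0 and 32.8 CPM, HET libraries 6.20, 6.89, 4.09 and 46.0 CPM, and KO libraries 1.02, 2.10, 4.13 and 11.2 CPM. Replicate 4 was the highest in each genotype, and the 3 genotypes overlapped. From day 0 CRABP2 fell by 1.47 in WT (SE 0.47, adjusted p = 0.015), by 1.99 in HET (SE 0.66, adjusted p = 0.025) and by 3.85 in KO (SE 0.58, adjusted p = 6.0e-05). Without replicate 4 of day 3 these values were -2.28, -3.52 and -4.80, and the HET call was lost without replicate 1 or 2 of either day, with adjusted p-values up to 0.068. KO against WT at day 3 was -1.66 (SE 0.88, adjusted p = 0.20), and with the replicate number as a block -1.80 (adjusted p = 0.0013), though the numbers did not meet the criterion for pairing there.

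From day 3 to day 7 CRABP2 rose by 4.40 in KO (SE 0.59, adjusted p = 3.4e-05) and 2.39 in HET (SE 0.67, adjusted p = 0.012), against 1.07 in WT (SE 0.47, adjusted p = 0.076). The change differed from WT in KO (3.30, SE 0.88, adjusted p = 0.0072). In HET the difference was 1.35 (SE 0.86, adjusted p = 0.47), and without HET replicate 4 of day 3 it was 2.86 (adjusted p = 0.017). From day 0 to day 3 no member's change was called against WT in KO (8.55% of all genes called) or HET (0.271%). CRABP2 was at -2.39 in KO there (SE 0.87, adjusted p = 0.085), and at -3.32 without KO replicate 4 of day 3 (adjusted p = 0.011). On TPM, CRABP2 made up 33.6% ± 9.1 of the 2 carriers in WT at day 0, 12.4% ± 7.2 at day 3 and 12.1% ± 9.7 at day 7, and 1.54% ± 0.72 in KO at day 3.

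CRABP1 (ENSG00000166426, chromosome 15, 78340324 to 78348230, plus strand), the carrier that holds retinoic acid in the cytoplasm, varied more between replicates than between genotypes. WT replicate 1 was the lowest library at each day, at 26.7, 17.4 and 28.0 CPM on days 0, 3 and 7. HET replicate 1 was the highest at each day, at 224, 389 and 760 CPM. Their ratio was 8.39, 22.3 and 27.1. On TPM, HET replicate 1 was the highest at days 0 and 3 but not at day 7, where it held 302 TPM against 349 in HET replicate 2 and 438 in KO replicate 2. The other WT libraries held 74.7 to 85.9 CPM at day 0, 85.0 to 132 CPM at day 3 and 292 to 467 CPM at day 7. KO libraries held 61.5 to 103, 70.5 to 318 and 307 to 440 CPM.

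No genotype comparison of CRABP1 passed the test. The KO value was 0.24 (SE 0.43), 1.15 (SE 0.62) and 0.42 (SE 0.65) on days 0, 3 and 7, with adjusted p-values of 0.91, 0.21 and 0.65. Without replicate 1 of all genotypes the SE at day 0 dropped to 0.09, and KO was at -0.19 and HET at -0.27, neither of which passed (adjusted p = 0.46 and 0.29). Over time CRABP1 rose in KO by 1.34 from day 0 to 3 (SE 0.37, adjusted p = 0.0061), a call lost on TPM (0.63, adjusted p = 0.11). It rose there by a further 0.97 from day 3 to 7 (SE 0.36, adjusted p = 0.040), a call lost on TPM and without replicate 1 or 2 of day 3 or replicate 2, 3 or 4 of day 7, with adjusted p-values up to 0.11. In WT the day 3 to 7 change was 1.68 (SE 0.67, adjusted p = 0.053), and it passed without WT replicate 1 of day 7 (0.0032) and without the filter (0.016). HET changed by 0.82 from day 0 to 3 (adjusted p = 0.31). With the replicate number as a block, CRABP1 was called in HET from day 0 to 3 (0.79, adjusted p = 0.0060) and from day 3 to 7 (0.84, adjusted p = 0.0054) and in WT from day 3 to 7 (1.54, adjusted p = 0.0012), though over all genes the numbers did not meet the criterion for pairing in these comparisons.

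**Figure D4:**
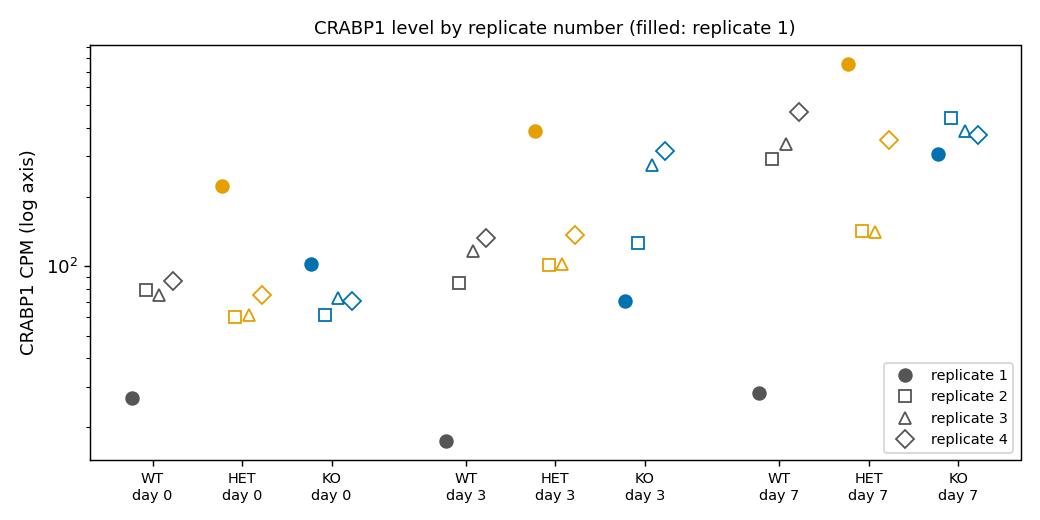
CRABP1 in each library (vertical log axis, CPM) by genotype and day, with symbols for the replicate number and replicate 1 filled. WT replicate 1 is the lowest (17.4 to 28.0 CPM) and HET replicate 1 the highest (224 to 760 CPM) at every day on this scale; on TPM the latter does not hold at day 7.

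STRA6 (ENSG00000137868, chromosome 15, 74179466 to 74212267, minus strand), the membrane receptor that takes up retinol from its carrier in blood, had its highest mean at day 0 in each genotype. Day 0 libraries held 10.7, 8.79, 12.4 and 15.8 CPM in WT, 24.5, 6.59, 11.4 and 17.4 CPM in HET, and 18.6, 9.71, 18.0 and 21.7 CPM in KO. By day 3 it fell by 1.91 in WT (SE 0.45, adjusted p = 0.0019), by 2.22 in HET (SE 0.49, adjusted p = 0.0023) and by 3.05 in KO (SE 0.26, adjusted p = 3.4e-07). The difference between the KO and WT falls was -1.13 (SE 0.61, adjusted p = 0.27). At day 3 KO libraries (1.66 to 2.47 CPM) lay below WT libraries (2.64 to 3.46 CPM), but the difference of -0.63 (SE 0.30) did not pass (adjusted p = 0.15). On TPM these ranges overlapped, at 0.23 to 1.26 in KO and 0.49 to 0.95 in WT. KO rose again by 0.97 to day 7 (SE 0.25, adjusted p = 0.0055), a call lost on TPM. The WT libraries held 1.01, 8.15, 3.49 and 2.17 CPM at day 7. HET replicate 1 was the highest HET library at each day, at 24.5, 5.37 and 6.22 CPM, but on TPM not at day 7, where it held 0.59 against 1.51 and 1.31 in replicates 2 and 3.

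DHRS3 (ENSG00000162496, chromosome 1, 12567910 to 12617731, minus strand), the retinal reductase that limits retinoic acid synthesis, was almost confined to stem cells. Day 0 libraries held 6.63, 2.52, 5.41 and 4.02 CPM in WT, 1.84, 3.75, 3.19 and 6.02 CPM in HET, and 11.3, 2.71, 1.76 and 3.07 CPM in KO. KO replicate 1 was the highest of the 12, and the genotypes overlapped (0.05 in KO, SE 0.53, adjusted p = 0.99; -0.32 in HET, SE 0.54, adjusted p = 0.87). At day 3 WT libraries held 4 to 10 counts, HET 1 to 7 and KO 1 or 2. Pooled counts at day 0 were 32.9 times those at day 3 in WT (interval 22.1 to 51.2). The factor was 41.4 (24.9 to 74.6) for HET and 137 (62.6 to 375) for KO. Each fall passed the test, while the difference between the KO and WT falls did not (-1.89, SE 0.94, adjusted p = 0.23). DHRS3 did not pass the filter in the genotype comparisons of days 3 and 7.

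The largest share of the 3 receptors passed from RARG to RARA on induction, though the mean level of RARA did not rise by day 3. In WT RARA went from 5.83 ± 1.22 TPM at day 0 to 2.08 ± 0.724 TPM at day 3. RARG went there from 8.25 ± 0.487 to 0.0575 ± 0.00957 TPM. At day 0 RARG made up 57.4% ± 6.0 of the summed TPM of the 3 receptors in WT, 58.4% ± 6.9 in HET and 61.0% ± 7.6 in KO. RARA held 40.1% ± 6.0, 37.4% ± 5.4 and 35.9% ± 5.8 in the same order. At day 3 the RARA share was 89.9% ± 3.0, 85.4% ± 8.9 and 86.2% ± 2.7, and the RARG share 2.67% ± 0.76, 1.54% ± 0.78 and 2.50% ± 2.0. At day 7 RARA stood at 91.6% ± 5.1, 93.9% ± 0.64 and 91.8% ± 2.4. The 3 genotypes overlapped in the RARA share at each day.

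**Figure D5:**
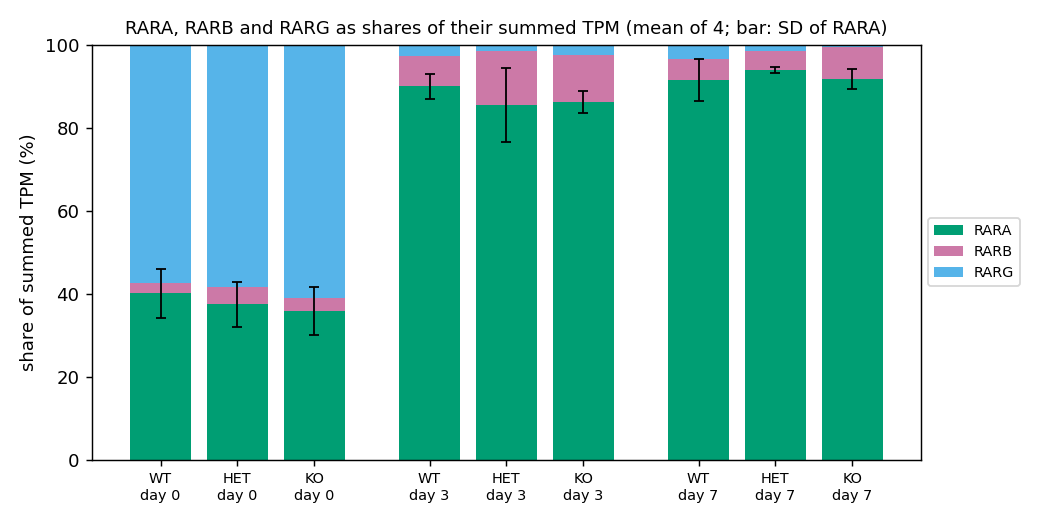
Share of the summed TPM of RARA, RARB and RARG held by each receptor (vertical axis, percent; mean of 4 libraries, bar the SD of the RARA share) in the 9 groups. RARG holds over 57% of the sum at day 0 in every genotype and under 4% at days 3 and 7.

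RARG (ENSG00000172819, chromosome 12, 53210567 to 53232980, minus strand), the receptor subtype of undifferentiated and epithelial cells, fell steeply in every genotype. WT libraries held 18.8, 22.7, 22.9 and 26.1 CPM at day 0 and 0.276, 0.114, 0.262 and 0.364 CPM at day 3. The log2 change was -6.47 in WT (SE 0.28, adjusted p = 5.8e-10), -6.79 in HET (SE 0.66, adjusted p = 4.2e-06) and -6.65 in KO (SE 0.60, adjusted p = 5.6e-07). WT then rose by 1.54 to day 7 (SE 0.28, adjusted p = 3.9e-04), to 0.857, 0.640, 0.710 and 0.745 CPM, a call lost on log2(TPM + 1) (0.12, adjusted p = 0.52). At day 7 the KO libraries held 0.233, 0.0250, 0.0821 and 0.439 CPM, all below WT, and the HET libraries 1.02, 0.164, 0.173 and 0.159 CPM.

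That day 7 difference in RARG stood near the threshold. It was -1.94 in KO (SE 0.74, adjusted p = 0.060) and -0.93 in HET (SE 0.69, adjusted p = 0.41). KO passed without KO replicate 4 (adjusted p = 0.026), with DESeq2 (0.032), with the replicate number as a block (-2.21, adjusted p = 0.026) and without replicate 1 of all genotypes (-1.96, adjusted p = 0.043). HET passed without replicate 1 of all genotypes (-2.04, adjusted p = 0.039) and without HET replicate 1 alone (-2.17, adjusted p = 0.018), its 3 other libraries lying between 0.159 and 0.173 CPM. Leaving out other single libraries gave edgeR adjusted p-values up to 0.15 in KO and 0.65 in HET. On TPM the KO libraries (0.01 to 0.08) lay below WT (0.10 to 0.19), and the HET libraries (0.03 to 0.15) overlapped WT. All these values rest on 1 to 40 counts a library.

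RARA (ENSG00000131759, chromosome 17, 40309192 to 40357643, plus strand), the widely expressed receptor, was the steadiest member between genotypes. Its KO value was -0.15 (SE 0.13), 0.16 (SE 0.29) and -0.23 (SE 0.18) on days 0, 3 and 7, and its HET value -0.04 (SE 0.13), 0.02 (SE 0.29) and 0.00 (SE 0.18). WT libraries held 14.5, 20.2, 14.8 and 13.7 CPM at day 0, 12.7, 9.79, 8.56 and 14.2 CPM at day 3, and 23.0, 31.6, 33.3 and 38.9 CPM at day 7. The rise from day 3 to day 7 passed the test in WT (1.49, SE 0.20, adjusted p = 3.1e-05), HET (1.48, SE 0.27, adjusted p = 8.0e-04) and KO (1.12, SE 0.16, adjusted p = 5.0e-05), in KO not on TPM. On CPM the day 7 groups stood apart from all others. On TPM they did not: WT libraries held 4.25 to 7.21 TPM at day 0 and 2.64 to 6.46 TPM at day 7. At day 3 they held 1.18 to 2.92 TPM. The fall of 0.49 from day 0 to day 3 in WT (SE 0.20, adjusted p = 0.047) was lost without replicate 1, 2 or 3 of day 0 or replicate 2 or 3 of day 3, with adjusted p-values up to 0.15, without the filter (0.052) and with the replicate block (0.059).

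RARB (ENSG00000077092, chromosome 3, 25174332 to 25597932, plus strand), the receptor that retinoic acid itself induces, was low throughout, at 22 to 157 counts a library. At day 3 WT libraries held 1.25, 1.14, 0.761 and 0.702 CPM, HET libraries 1.54, 1.70, 1.50 and 0.875 CPM, and KO libraries 1.19, 2.28, 2.59 and 1.59 CPM. KO replicate 1 overlapped WT. The KO difference of 0.95 (SE 0.32, adjusted p = 0.049) was at the threshold. It was lost without any 1 of WT replicates 1 to 4 or KO replicates 2 and 3, with adjusted p-values up to 0.13, without the filter (0.082), without replicate 1 of all genotypes (0.058) and on TPM (0.28). At day 0, where CYP26A1 differed, RARB was at 0.26 in KO (SE 0.40, adjusted p = 0.89) and 0.77 in HET (SE 0.39, adjusted p = 0.48). At day 7 it was at 0.67 in KO (SE 0.33, adjusted p = 0.14) and 0.01 in HET (SE 0.34, adjusted p = 0.98). In WT it rose by 0.92 from day 3 to 7 (SE 0.32, adjusted p = 0.026), lost without replicate 3 or 4 of day 3 or replicate 1 or 2 of day 7, with adjusted p-values up to 0.093, and on log2(TPM + 1) (0.54). RARB overlaps TOP2B on the opposite strand, and whether the counting used strand is not given in the sources used here. The same limit holds for RARA with RARA-AS1 and STRA6 with CCDC33.

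Around these genes, few members of the wider pathway were called at day 0 and more at day 7, as over all genes, of which 2.08% and 32.6% were called in KO and 1.63% and 14.4% in HET. Of 21 genes that make or handle retinoids, 15 passed the filter at day 0, none was called in KO, and CYP26C1 was the 1 called in HET. At day 3, 13 passed and RDH11, a retinal reductase, was the 1 called in KO (103 ± 12.1 against 73.3 ± 4.21 CPM, log2 fold change 0.47). None of the 13 was called in HET. At day 7, 12 passed, of which 5 rose and 2 fell in KO and 2 rose in HET, the last a share near that of all genes. RDH10, the retinol dehydrogenase that starts retinoic acid synthesis, rose from 3.19 ± 0.482 CPM in WT to 10.9 ± 4.72 CPM in KO (1.77, SE 0.46, adjusted p = 0.011) and 11.2 ± 5.86 CPM in HET (1.80, SE 0.46, adjusted p = 0.020). RDH11 rose by 0.70 in KO and 0.55 in HET. CYP1B1, a cytochrome P450 that can oxidise retinol, fell in KO from 13.9 ± 8.01 to 1.86 ± 1.73 CPM (-2.91, SE 0.63, adjusted p = 0.0037). The medians over this list were 0.32 in KO and 0.06 in HET at day 7.

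Of 14 RXR partners and coregulators, all passed the filter at each day and none was called at day 0. At day 3 RXRG, NCOA2 and ZNF423 rose in KO, 3 of 14 where 21.6% of all genes were called, which is near the background. RXRG, a binding partner of the receptors, went from 1.37 ± 0.185 CPM in WT to 5.13 ± 1.25 CPM in KO (1.88, SE 0.27, adjusted p = 3.0e-04). In HET it was the 1 called, at 4.33 ± 1.19 CPM (1.67, SE 0.27, adjusted p = 0.0029), and is named there because it stood alone. At day 7 RXRG (2.25, adjusted p = 0.0037) and NCOA2, a coactivator (0.83, adjusted p = 0.010), rose in KO, 2 genes fell, among them the corepressor NRIP1 (-0.87, adjusted p = 0.013), and none was called in HET; the 4 of 14 in KO stand beside 32.6% of all genes.

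Of 18 symbols listed as retinoic acid targets, 17 matched and 12 passed the filter at day 0, none of them called in KO or HET, with medians of 0.47 and 0.57. At day 3, 14 passed, of which 2 rose and 3 fell in KO (21.6% of all genes called) and none was called in HET. Among the falls was RARRES2, a secreted retinoid-responsive protein (0.476 ± 0.567 against 5.50 ± 4.07 CPM, -3.55, SE 1.09). At day 7, of 14 again, 3 rose and 3 fell in KO (32.6% of all genes called), and 1 rose and 2 fell in HET (14.4%). The 1 that rose in HET was RET, the signalling receptor for GDNF, which was in the medium. RET went from 19.5 ± 14.8 CPM in WT to 168 ± 25.0 CPM in KO (3.11, SE 0.72, adjusted p = 0.0059) and 173 ± 103 CPM in HET (3.15, SE 0.72, adjusted p = 0.012). Of the 14 anterior HOX genes, 6 passed at days 3 and 7, and HOXA2 and HOXA3 rose in KO and HET on both days. These 2 of 6 stand beside 21.6% of all genes in KO and 3.28% in HET at day 3. At day 7 the shares were 32.6% and 14.4%. Both genes are named after their values were seen. Replicate 1 held the highest HOX sum of its group there too, at 75.5 and 124 CPM in HET and 37.0 and 46.8 CPM in KO, against 6.39 to 14.9 CPM in the other mutant libraries. The WT sums were 8.04 to 15.9 CPM at day 3 and 9.71 to 25.2 CPM at day 7.

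The genes most like each member over the 36 libraries, by Pearson's r of log2(CPM + 1) among 12069 genes with a symbol and a mean of at least 5 CPM, followed the time course that all libraries share. RARG was closest to IFITM1, NANOG and ZSCAN10, each at 0.99, and NANOG is a pluripotency factor. DHRS3 was closest to MARVELD2 (0.976), LCK (0.972) and TDGF1 (0.970), the last a stem cell co-receptor. CYP26A1 was closest to JAKMIP2-AS1 (0.928), TRPC4 (0.916) and CCDC80 (0.909), and STRA6 to CCDC80 (0.906), B3GNT7 (0.898) and CNMD (0.893). RARA was closest to CERS4 (0.939), ITM2C (0.931) and OLFM2 (0.907), and CRABP2 to CITED2 (0.906), ID2 (0.894) and PTPRM (0.893). CRABP1 reached 0.787 with ZSCAN18, 0.773 with C4orf48 and 0.762 with ASTN2. RARB reached 0.714 with SENP8, 0.708 with ZNF292 and 0.708 with SKIDA1. CYP26B1 reached no more than 0.575 with DACT1, 0.575 with DPH1 and 0.552 with CCDC3.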

How the data were processed

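RNA from 36 libraries was sequenced as paired-end reads after ribosomal RNA depletion, per the labels' protocols. Per the submitters' processing notes, the tools were cutadapt 4.8, FastQC 0.11.8, MultiQC 1.20, STAR 2.7.8a and RSEM 1.3.3, with GRCh38; their settings and strand use are not given in the sources used here. The authors deposited gene-level expected counts (RSEM) and TPM values. All expected count values were whole, and 4 rows of reporter sequences were left out. The members and lists were chosen with earlier results of these data known.

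Expected counts, rounded to whole numbers, were tested with edgeR 4.0.16 in R 4.3.3 (filterByExpr, TMM, glmQLFit and glmQLFTest) on all genes, with Benjamini-Hochberg adjustment over all genes tested and a threshold of 0.05. Genotypes were compared within a day on 12 libraries, days within a genotype on 12 libraries, and changes between genotypes on all 36. Levels are CPM with TMM factors over all 36 libraries. Alternatives were DESeq2 size factors, DESeq2 1.42.0, limma 3.58.1 on log2(TPM + 1), no filter, the replicate number as a block, each library left out, and replicate 1 of all genotypes left out (at days 3 and 7 added after the data were seen). The scripts were tested on simulated data.

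All 9 members are described. From the other lists, at most 3 called genes per list and comparison were named, those with the largest log2 fold change and a mean of at least 5 CPM in the higher group; exceptions are stated where they occur. In the list of HOX genes, 1 gene is not reported here and was left out of its counts and sums. Positions are from GENCODE 29. In KO against WT at day 0 and HET against WT at day 3, same-numbered libraries deviated together (r of 0.19 to 0.43 and 0.13 to 0.67), which met the criterion for pairing (every r above 0.1, from the data, since the labels give only the number). Blocking raised the genes called there from 425 to 960 and from 708 to 1895. Intervals of pooled counts are exact, at 95%, and cover counting error only; 3 counts was the floor.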

Additional observations from a re-analysis of the deposited data

Results flagged for a closer look

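The change of CRABP2 from day 3 to day 7 differed between KO and WT by 3.30 on the log2 scale, and that of CYP26B1 by -3.64, both by edgeR's test of the difference itself.

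In 13 of 77 member-by-group sets of 4 libraries, 1 library lay apart from the other 3 by Dixon's criterion; chance gives about 1 in 20, or 3.9 sets. Replicate 1 was the library apart in 10 of them. In HET these were CRABP1 at day 0 (224 CPM, others 60.0 to 75.4) and day 3 (389 CPM, others 101 to 137), CRABP2 at day 7 (110 CPM, others 76.9 to 79.0), RARG at day 7 (1.02 CPM) and STRA6 at days 3 and 7 (5.37 and 6.22 CPM). On TPM the day 7 values of HET replicate 1 were not high: CRABP2 was at 34.8 TPM (others 47.1 to 142), RARG at 0.14 TPM (others 0.03 to 0.15) and STRA6 at 0.59 TPM (others 0.54 to 1.51), in the library with 27.5% of its counts in 5 structural RNA genes. In KO they were CRABP2 at day 7 (62.1 CPM, others 102 to 108), RARA at day 0 (15.9 CPM, others 13.1 to 13.5) and DHRS3 at day 0 (11.3 CPM, others 1.76 to 3.07). In WT it was CYP26A1 at day 0 (0.218 CPM, others 1.25 to 1.42). Replicate 4 of day 3 was apart for CRABP2 (46.0 CPM) and CYP26B1 (1.81 CPM) in HET and for RARG in KO (0.595 CPM).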

How the results depend on the processing

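Of the 36 calls of a member in a comparison, 21 were kept under every alternative that gave a value: 36 with DESeq2 size factors, 36 with DESeq2, 34 without the filter, 35 with the replicate block, 24 on log2(TPM + 1) and 29 with each library left out in turn. Another 19 member and comparison pairs were called under at least 1 alternative, and 105 of 160 under none.

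On log2(TPM + 1) the members called numbered 0 in KO against WT at day 3 and 1 in KO and HET against WT at day 7, WT and KO from day 3 to 7, and, for the change against WT, KO and HET from day 0 to 3 and KO from day 3 to 7. The calls from day 0 to 3 were of CYP26A1, which reversed, at -1.84 in KO (main value 0.37) and -1.58 in HET (main value 0.29); TPM + 1 compresses levels near 0. TPM moved the median of all genes by up to 0.46, in HET against WT at day 7. With the replicate block the count was 1 in HET against WT and KO against HET at day 3, 4 in HET from day 3 to 7, and 1 in the KO change from day 0 to 3. It was 1 with DESeq2 in HET against WT at day 3, the KO change from day 0 to 3 and the HET change from day 3 to 7, and 1 in KO against WT at day 3 without the filter and without replicate 1 of all genotypes.

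Leaving out each library gave 0 to 1 called members in HET against WT at days 0 and 3, the KO change from day 0 to 3 and the HET change from day 3 to 7, 1 to 2 in KO against WT at day 3, and 1 to 3 in the KO change from day 3 to 7. The change of CYP26A1 from day 0 to 3 then ran from -0.11 to 0.89 in KO and from -0.70 to 0.81 in HET; both are uncalled and rest on the 4 WT counts at day 3. Elsewhere the cause of a lost or gained call was not tested.

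The count of all genes called moved by more than 1.5 times in these cases. For KO against WT at day 0 it was 425, 902 with DESeq2, 238 on TPM and 960 with the block; for HET against WT at day 0, 333, 655, 184 and 689. At day 3, KO against WT had 4649, 816 on TPM, 8138 with the block and 2033 without replicate 1 of all genotypes. HET against WT there had 708, 39, 1895 and 296, with 1321 by DESeq2 and 385 to 1416 with a library left out; KO against HET had 937, 39, 2739 and 180, with 1853 and 334 to 1241. At day 7, TPM gave 1007 against 7070 in KO, 271 against 3129 in HET and 39 against 305 in KO against HET. HET against WT there had 7267 without replicate 1 of all genotypes and 1700 to 7674 with a library left out, and KO against HET 857 with DESeq2 and 146 to 626. Over time TPM gave 6734 against 10284 in WT from day 3 to 7, 5171 against 10488 and 2587 against 8955 in HET, and 8508 against 13088 and 4496 against 10555 in KO. For changes against WT, TPM gave 321 against 2118 and 942 against 4588 in KO and 109 against 1174 in HET from day 3 to 7, and a left-out library gave 1320 to 3140 in the KO change from day 0 to 3, 42 to 195 against 67 in the HET change from day 0 to 3 (204 with DESeq2), and 729 to 2353 in the HET change from day 3 to 7.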
